A study of Mus musculus with 12 samples.

Results

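The 36 genes described here are *Myc*, its partner *Max*, its paralog *Mycn* and 33 genes of ribosome biogenesis, chosen by name. All 36 were among the 24561 genes of the deposited count table, and 35 of them passed the filter on low counts that left 12719 genes for testing. *Mycn* did not pass and lay between 0 and 0.375 CPM (counts scaled to a common library size) in every mouse. MYC is a transcription factor that binds DNA as a dimer with MAX and is induced when T cells are activated, where it drives growth. Ribosomes are assembled in the nucleolus: RNA polymerase I transcribes the ribosomal RNA precursor, small nucleolar ribonucleoproteins (snoRNPs) modify it, and a large set of assembly factors cuts, folds and packs it into the small and the large subunit. Genes of this machinery are among the best known targets of MYC.

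RNA was measured in CXCR5hiPD-1hi OT-II Tfh cells, which are follicular helper T cells with a transgenic receptor for ovalbumin. The cells came from lymph nodes taken 3 days after immunization with NP-OVA, given with LPS in alum, of SAP-deficient recipients into which the OT-II cells had been transferred. T cells of such recipients lack the adaptor SAP, which T cell help to germinal centers requires. All samples are labelled strain C57BL/6. Of the 6 recipients, 3 had received cells labelled CD4-CrexBcl6fl/+ (BCL6-insufficient) and 3 had received cells labelled CD4-Cre (wild-type), so that both groups carried Cre under the *Cd4* promoter and floxed *Bcl6* was the difference between them. From each recipient there were 2 technical repeats of about 200 cells, or 12 libraries. Total counts were between 3343375 and 8315722 per library with the BCL6-insufficient label and between 5240715 and 7266106 with the wild-type label. The age of the mice and the number of donors behind the recipients are not given in the sources used here. So the p-values measure the spread between recipients, which includes the error between technical repeats.

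The transcript of *Bcl6* was higher, not lower, in the mice labelled BCL6-insufficient (149 ± 2.18 CPM, SD, n = 3 mice, against 62.4 ± 11.5, adjusted p = 6.3e-07), and a count over the gene cannot tell transcripts of a floxed-out allele from others. The groups are therefore named by their labels throughout, and every direction rests on them. Defining T cell markers were present in every mouse: *Cd3e* was between 385 and 564 CPM, *Cd4* between 336 and 589 and *Cxcr5* between 225 and 330, while *Cd8a* did not exceed 0.15 CPM. Of 21 tested T cell and Tfh markers, 5 rose and 7 fell by edgeR (57.1%, against 18.0% of all genes tested, of which 9.17% rose and 8.82% fell). In the mice labelled BCL6-insufficient, *Cxcr5* (log2 fold change -0.40, adjusted p = 0.00476), *Pdcd1* (-0.42, 0.0042) and *Tox2* (-0.80, 8.01e-06) fell, as did *Cd4* (-0.34, 0.0446, named after its values were seen), and *Icos* (0.64, 0.000147) and *Trac* (0.55, 0.000151) rose. Summed B cell markers overlapped between the labels (518 to 738 CPM against 615 to 875 in wild-type, 15 genes, of which 8 were tested and 0 called by edgeR, 1 at an unadjusted p under 0.05 and 1 by DESeq2). Summed myeloid markers did not (108 to 133 CPM against 84.3 to 90.8, 11 genes, of which 4 were tested and 1, *Lyz2*, rose). The B cell sum was mostly *Ighm* (533 ± 58.6 against 655 ± 96.1 CPM, log2 fold change -0.30, adjusted p = 0.0511 by edgeR). Over the mice *Cd79a* lay between 0.0889 and 10.6 CPM and *Cd74* between 4.22 and 52.3. *Cst3* led the myeloid sum. The part of such cells in the results was not tested. In such bulk samples, fewer cells of a kind and less RNA per cell cannot be told apart.

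Promoter windows of RefSeq (GRCm38.p6, 250 bases before to 50 after an annotated start) were at hand for 31 of the 36 members, not for *Myc*, *Fbl*, *Npm1*, *Bop1* and *Rrp12*. They were searched for CACGTG, the E-box bound by MYC and MAX, and for TTCCNNGAA, a form of the BCL6 and STAT motif. CACGTG reads the same on both strands, the other motif was also searched as TTCNNGGAA, its form on the opposite strand, and 0 member windows held both motifs. CACGTG was in 8 of 35 member windows (22.9%), against 10.1% of the windows of all genes tested and 7.15% of all windows of the table. The matches are printed with the E-box in capitals, up to 12 bases on either side and the strand of the gene.
Nop2, chr6:125131811-125131840, plus strand: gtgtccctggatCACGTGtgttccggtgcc
Max, chr12:76962234-76962263, minus strand: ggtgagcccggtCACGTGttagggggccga
Pes1, chr11:3963965-3963994, plus strand: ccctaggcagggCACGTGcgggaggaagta
Wdr43, chr17:71616220-71616249, plus strand: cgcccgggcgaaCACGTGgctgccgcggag
Tsr1, chr11:74898092-74898121, plus strand: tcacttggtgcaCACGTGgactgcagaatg
Ltv1, chr10:13193092-13193121, minus strand: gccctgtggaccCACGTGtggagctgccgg
Pno1, chr11:17211540-17211564, minus strand: tgtacaaccacgCACGTGttcctct
Utp20, chr10:88826765-88826789, minus strand: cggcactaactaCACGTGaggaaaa

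In *Nop2* the E-box began 60 bases upstream of the start, in *Max* it lay across the start, and in the other 6 genes it began between 2 and 37 bases downstream. Of these 8 genes, *Max* and *Pes1* were called lower in the comparison below and 6 were not called, 5 of those 6 being in small subunit assembly. The 4 members called higher held the E-box in 0 of their 5 windows. TTCCNNGAA, on either strand, was in 3 member windows, those of *Noc4l*, *Nop58* and *Polr1b* (8.57% of windows, against 4.46% for all genes tested). A match of letters is a description and was not tested for binding.

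The comparison of the labels asked which genes of this program differed between BCL6-insufficient and wild-type Tfh cells. A gene was called when its adjusted p was under 0.05 in edgeR's quasi-likelihood test on the counts of both repeats summed per mouse. Of the 35 members tested, 4 rose with the BCL6-insufficient label (*Gnl3*, *Noc2l*, *Nop10* and *Nop56*), 4 fell (*Max*, *Gar1*, *Pes1* and *Fbl*) and 27 were not called. The 8 calls are 22.9% of the tested members. Over all genes tested 18.0% were called, 9.17% higher and 8.82% lower, so that the share among the members was near the background in both directions. The median log2 fold change of the members was 0.07 (0.01 over all genes), with 21 members above 0 and 14 below. In 11 members (31.4%) the 3 mice of each label did not overlap, against 34.4% of all genes tested. DESeq2 called 10 members (20.1% of all genes), and 11 members had an unadjusted p under 0.05 in edgeR (31.0% of all genes). The calls lay on both sides within the box C/D and box H/ACA snoRNPs and within the group of large subunit factors, as the plot of members by role shows. Without the first wild-type mouse all 4 lower calls missed the threshold (adjusted p between 0.0509 and 0.11), with log2 fold changes between -0.51 and -0.34. The higher call of *Nop56* missed it there too (0.0774). With trends in GC content and transcript length removed, the 4 higher calls passed and of the lower ones *Max* alone did.

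**Figure D1:**
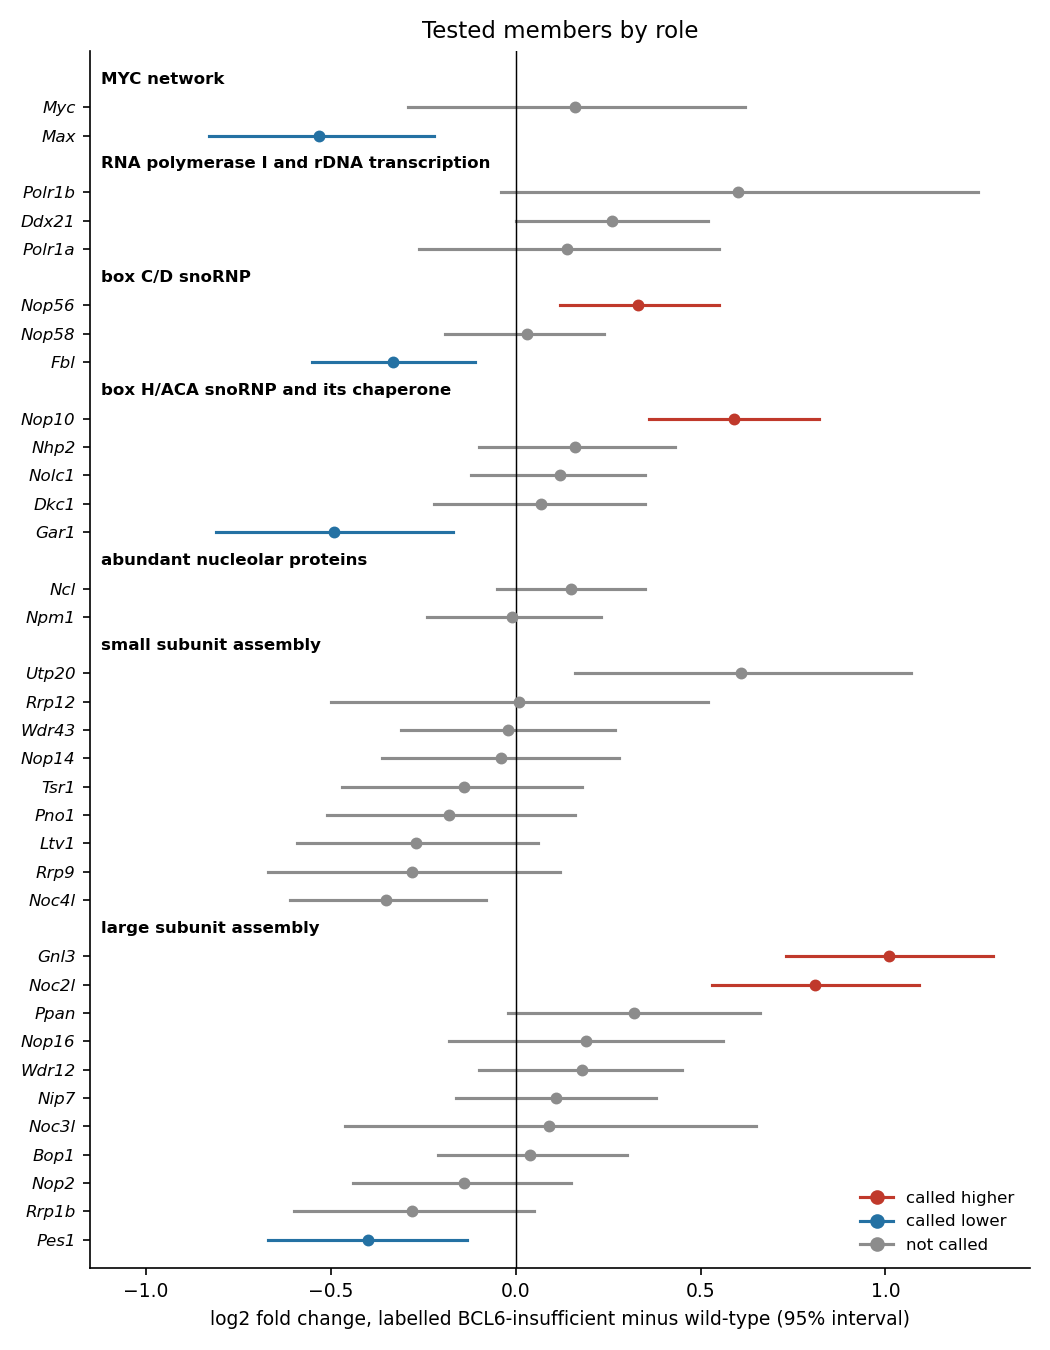
Log2 fold change (x axis, mice labelled BCL6-insufficient minus mice labelled wild-type, 3 against 3) of the 35 tested members, grouped by role (y axis). Points are edgeR estimates and lines their 95% intervals, red for the 4 members called higher, blue for the 4 called lower and grey for the 27 not called, and the groups of snoRNP and large subunit genes hold points on both sides of 0.

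*Myc* itself was not called. It held 15.1, 23.8 and 30.3 CPM in the 3 mice labelled BCL6-insufficient and 23.4, 17.5 and 20.5 CPM in the 3 labelled wild-type. The mice labelled BCL6-insufficient thus spanned the whole wild-type range and went beyond it on both sides. The log2 fold change was 0.16 (SE 0.22, 95% interval -0.29 to 0.62, adjusted p = 0.665). The error below the mouse was large for *Myc*: the repeats of the first BCL6-insufficient mouse read 31.0 and 4.05 CPM and those of the first wild-type mouse 37.2 and 10.2 CPM. Its SD between repeats of a mouse was 0.994 on the log2 scale, the highest of all members. Its SD between mice, for summed repeats, was 0.382.

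*Max*, the obligate partner of MYC (chromosome 12, 76937269 to 76962201, GRCm38), fell. It held 29.7, 28.4 and 28.7 CPM in the mice labelled BCL6-insufficient and 43.5, 43.0 and 38.7 CPM in the mice labelled wild-type, with no overlap and little spread within a label. The log2 fold change was -0.53 (SE 0.15, adjusted p = 0.0142). Of 14 tested genes of other partners and antagonists of MYC, 4 rose and 0 fell (edgeR; 6 at an unadjusted p under 0.05 and 5 called by DESeq2), with a median of 0.07. That is 28.6% called higher, against 9.17% of all genes tested, and nothing particular to this short list is read from it. The 3 of smallest p were *Bptf*, a chromatin remodeling subunit (117 ± 9.67 against 75.6 ± 9.79 CPM, log2 fold change 0.63), *Fbxw7*, the ubiquitin ligase subunit that marks MYC for degradation (18.5 ± 0.465 against 9.32 ± 3.1 CPM, 0.99), and *Huwe1*, another ubiquitin ligase that acts on MYC (111 ± 7.28 against 81.0 ± 14.2 CPM, 0.45).

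RNA polymerase I was represented by *Polr1a* and *Polr1b*, which encode its largest subunits, and by *Ddx21*, a helicase of ribosomal DNA transcription and RNA processing. By edgeR 0 of these 3 were called, 1 had an unadjusted p under 0.05 and DESeq2 called 0. All 3 estimates were above 0. *Polr1b* held 12.3, 6.21 and 7.81 CPM with the BCL6-insufficient label and 6.41, 6.04 and 4.96 CPM with the wild-type one. Its log2 fold change of 0.60 (SE 0.31, adjusted p = 0.194) became 0.27 when the first of these mice was left out (range 0.27 to 0.80 over the 6 mice left out in turn). *Ddx21* held 87.6, 99.3 and 124 CPM against 78.6, 92.1 and 88.3 CPM (log2 fold change 0.26, SE 0.12, adjusted p = 0.158), with overlapping mice. *Polr1a* was at 17.7 ± 0.989 against 16.0 ± 1.01 CPM (0.14, adjusted p = 0.67). Among 18 other genes of the polymerase I machinery, 4 rose and 0 fell (edgeR; 7 at an unadjusted p under 0.05, 5 called by DESeq2), which is 22.2% called higher, against 9.17% of all genes tested. The 3 of smallest p, *Polr2f* (0.54), *Polr2l* (0.54) and *Polr2k* (0.65), encode small subunits that RNA polymerases I, II and III share.

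The box C/D snoRNP places methyl groups on ribosomal RNA. Its methyltransferase gene fell and a scaffold gene rose, and the first of these calls was lost with GC and length trends removed. *Fbl*, which encodes the methyltransferase fibrillarin (chromosome 7, 28169710 to 28179269), held 99.5, 119 and 119 CPM in the mice labelled BCL6-insufficient and 141, 148 and 136 CPM in the mice labelled wild-type. It fell, with a log2 fold change of -0.33 (SE 0.11, adjusted p = 0.0321). *Nop56*, a scaffold protein of the same particle (chromosome 2, 130274430 to 130279313), held 202, 189 and 235 CPM against 169, 152 and 176 CPM. It rose, with a log2 fold change of 0.33 (SE 0.10, adjusted p = 0.0291). *Nop58*, the scaffold that pairs with NOP56, was level at 128 ± 9.07 against 126 ± 5.68 CPM, with a 95% interval of -0.19 to 0.24 for its log2 fold change.

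The box H/ACA snoRNP converts uridines of ribosomal RNA to pseudouridines and has 4 core proteins. Of its core genes 1 rose and 1 fell, and the lower call was lost with GC and length trends removed, at a similar fold change. *Nop10*, its smallest core protein (chromosome 2, 112261926 to 112263269), held 212, 192 and 253 CPM with the BCL6-insufficient label and 132, 142 and 161 CPM with the wild-type label. It rose by a log2 fold change of 0.59 (SE 0.11, adjusted p = 0.000675). *Gar1* (chromosome 3, 129824912 to 129831396), a core protein that joins late in assembly, held 28.2, 39.7 and 30.4 CPM against 50.4, 42.5 and 45.7 CPM. It fell, with a log2 fold change of -0.49 (SE 0.15, adjusted p = 0.0289), and the second mouse labelled BCL6-insufficient came within 3 CPM of the lowest wild-type mouse. *Dkc1*, the pseudouridine synthase, *Nhp2*, the remaining core protein, and *Nolc1*, a snoRNP chaperone, were not called, with log2 fold changes between 0.07 and 0.16.

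These pairs were also compared within single mice. The ratio of *Nop56* to *Fbl* CPM was 2.03, 1.59 and 1.97 in the mice labelled BCL6-insufficient and 1.19, 1.03 and 1.29 in the mice labelled wild-type. The ratio of *Nop10* to *Gar1* was 7.52, 4.84 and 8.3 against 2.63, 3.34 and 3.52. A ratio of 2 genes of the same library does not depend on how libraries are scaled. The pairs were chosen after the values were seen, so the ratios are a description with no test.

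*Npm1* and *Ncl* encode nucleophosmin and nucleolin, abundant chaperones of the nucleolus, and held 44.1% of the members' summed CPM in the mice labelled BCL6-insufficient and 45.1% in the mice labelled wild-type. Neither was called (edgeR; 0 at an unadjusted p under 0.05, DESeq2 0). *Npm1* held 719, 907 and 1080 CPM against 812, 933 and 978 CPM, and *Ncl* 648, 789 and 819 against 646, 730 and 656 CPM. The 95% intervals of their log2 fold changes, -0.24 to 0.23 and -0.05 to 0.35, leave room for changes of modest size.

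Small subunit assembly factors form the early particle around the U3 snoRNA and carry it to the cytoplasm. By edgeR 0 of the 9 members were called, 2 had an unadjusted p under 0.05 and DESeq2 called 2, against 18.0%, 31.0% and 20.1% of all genes tested, and 7 of the 9 estimates were below 0 (median -0.14). Both of the DESeq2 calls came close in edgeR. *Utp20*, a scaffold of the early particle, held 20.9, 25.1 and 23.5 CPM with the BCL6-insufficient label and 14.1, 20.7 and 10.7 CPM with the wild-type label (log2 fold change 0.61, SE 0.22, adjusted p = 0.0562). *Noc4l*, which works together with NOP14, held 45.6, 44.2 and 53.6 against 61.6, 58.0 and 62.3 CPM (-0.35, SE 0.13, adjusted p = 0.0647). The mice did not overlap in either gene, so these members sit just outside the threshold on opposite sides of 0. *Nop14* itself was level (30.7 ± 2.69 against 31.5 ± 0.647 CPM). The remaining members were *Wdr43*, *Rrp9* and *Rrp12* of the nucleolar particle and *Pno1*, *Ltv1* and *Tsr1* of later steps, with estimates between -0.28 and 0.01. Among 55 tested small subunit factors outside the members, 3 rose and 4 fell (12.7%), *Lsm6* (0.48), *Esf1* (0.57) and *Heatr1* (0.58) among those higher and *Nop9* (-0.58), *Ddx47* (-0.43) and *Utp18* (-0.52) among those lower.

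Large subunit assembly held the largest differences of the members called higher. *Gnl3*, which encodes the nucleolar GTPase nucleostemin (chromosome 14, 31012433 to 31019152), held 74.4, 64.7 and 89.2 CPM in the mice labelled BCL6-insufficient and 34.9, 39.5 and 39.0 CPM in the mice labelled wild-type. Every mouse of the first label was far above every mouse of the second, and the fold change was 2.01 (log2 1.01, SE 0.14, adjusted p = 2.9e-05). *Noc2l* (chromosome 4, 156236010 to 156247616), a partner of NOC3L in the early large subunit that also binds p53 at chromatin, held 72.4, 63.5 and 75.3 against 43.6, 43.4 and 33.7 CPM, a fold change of 1.75 (log2 0.81, SE 0.14, adjusted p = 0.000256). The partner *Noc3l* stayed near 9 CPM under both labels (9.19 ± 0.6 against 8.62 ± 1.91), with a wide interval (-0.46 to 0.65).

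*Pes1*, *Bop1* and *Wdr12* encode the 3 subunits of the PeBoW complex, which is needed to process the precursor of the large subunit RNAs. *Pes1* (chromosome 11, 3963975 to 3980004) held 42.7, 38.6 and 48.3 CPM with the BCL6-insufficient label and 55.6, 58.0 and 57.1 CPM with the wild-type label. It fell, with a log2 fold change of -0.40 (SE 0.13, adjusted p = 0.0382). *Bop1* was at 69.9 ± 6.46 against 67.7 ± 5.68 CPM and *Wdr12* at 81.8 ± 10.2 against 72.4 ± 12.6 CPM, and neither was called. The ratio of *Gnl3* to *Pes1* in a mouse, again a pair chosen after its values were seen, was 1.74, 1.68 and 1.85 against 0.628, 0.681 and 0.683. The remaining members of this group were the RNA methyltransferase gene *Nop2*, *Rrp1b*, *Ppan*, *Nip7* and *Nop16*, with estimates between -0.28 and 0.32 and none called. Of the 11 members of this group 2 rose and 1 fell (27.3%, against 18.0% of all genes tested). Of 52 tested large subunit factors outside the members, 4 rose and 6 fell (19.2%), near the share over all genes. *Nsa2* (0.65), *Mak16* (0.68) and *Nvl* (0.52) were the higher genes of smallest p, and *Eif6* (-0.55), which keeps the free large subunit from joining the small one, *Las1l* (-0.59) and *Rrp1* (-0.38) the lower ones.

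**Figure D2:**
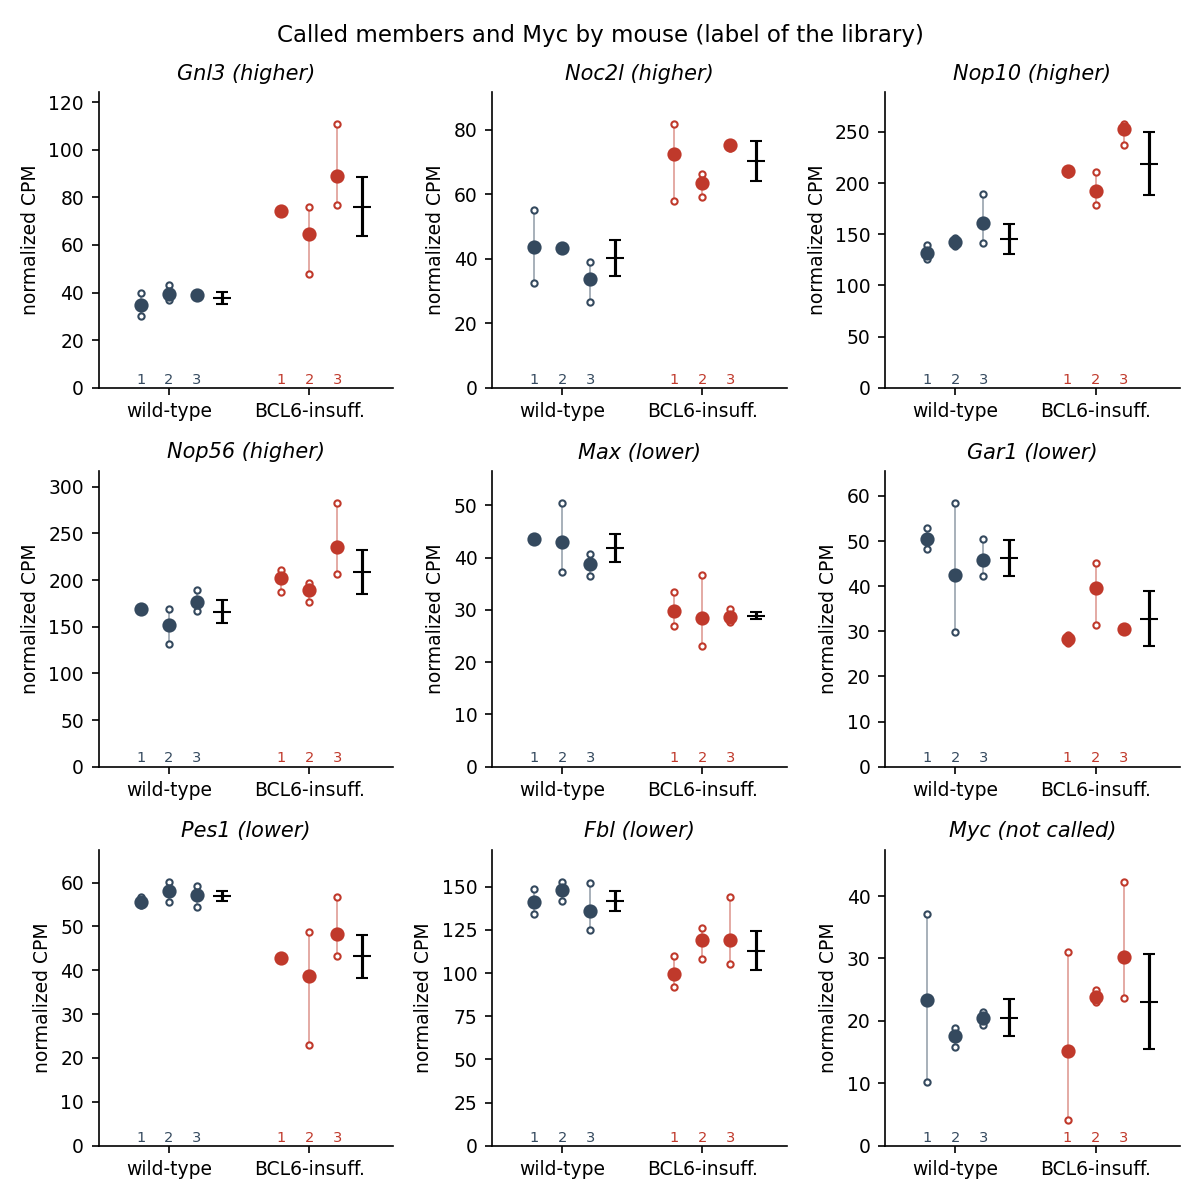
Normalized CPM (y axis, from 0) of the 8 called members and *Myc* in the 3 mice of each label (x axis, numbered within a label). Filled points are mice, open points joined by a line their technical repeats, and black bars the mean and SD over 3 mice. For each called gene the filled points of the labels do not overlap, while the open points of the labels overlap for 6 of the 8, all but *Gnl3* and *Noc2l*, and for *Myc* the repeats of the first mouse of each label lie far apart.

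Across the 27 members not called, log2 fold changes lay between -0.35 and 0.61 and adjusted p between 0.0562 and 0.981. For 13 of them the 95% interval stayed within -0.5 and 0.5, and for 25 within -1 and 1. A doubling was thus outside the interval for these 25 genes.

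A fit that leaves out a mouse has fewer mice to estimate the spread from, so a call can be lost there with the fold change kept. *Gnl3*, *Noc2l* and *Nop10* were called in all 6 fits that left out a mouse (adjusted p at most 0.00877). *Max* kept its log2 fold change between -0.59 and -0.51 and missed the threshold without the first wild-type mouse (adjusted p = 0.0509, range 0.0242 to 0.0509 over the 6). *Nop56* lost it without the third BCL6-insufficient mouse (0.137), the first wild-type mouse (0.0774) or the second (0.16), over a range that began at 0.0285, with log2 fold changes between 0.24 and 0.40. *Gar1* lost it without the first (0.131) or the third (0.0868) BCL6-insufficient mouse and without the first (0.11) or the third (0.068) wild-type mouse, with a lowest value of 0.0123 and log2 fold changes between -0.66 and -0.40. *Fbl* kept its call in 2 of the 6 fits and lost it without the first BCL6-insufficient mouse (0.155) or the first (0.072), the second (0.105) or the third (0.0502) wild-type mouse. Its log2 fold change was -0.25 without that BCL6-insufficient mouse and between -0.38 and -0.31 in the other 5 fits. *Pes1* kept it in 1 of the 6, without the third BCL6-insufficient mouse (0.0255), the others being 0.0944 and 0.157 without the first and second BCL6-insufficient mouse and 0.0711, 0.0996 and 0.0918 without each wild-type mouse in turn. Its log2 fold changes lay between -0.49 and -0.32. Without the first wild-type mouse 0 members were called lower and 3 higher by edgeR, when 12.8% of all genes were called. Among the members not called, *Utp20* passed the test without the second wild-type mouse (0.0126) and *Noc4l* without the third BCL6-insufficient mouse (0.036), with ranges over the 6 fits of 0.0126 to 0.276 and 0.036 to 0.197.

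With trends in GC content and transcript length removed (16.0% of all genes called), the 4 higher calls stood and of the lower ones *Max* did, while *Gar1* (log2 fold change -0.42, adjusted p = 0.0634), *Pes1* (-0.30, 0.128) and *Fbl* (-0.21, 0.181) did not pass. With the replicate number as a block added to that fit, *Gar1* passed (-0.43, 0.0498) and *Pes1* (0.124) and *Fbl* (0.147) did not. Transcripts of other genes matched 83.3% of the coding transcript of *Fbl*, 60.5% of that of *Pes1* and 39.2% of that of *Nop56* at 95% identity or more over at least 200 bases, so their counts are uncertain where reads could be assigned to a copy, and the part of copies in these calls was not tested. The copies of *Pes1* and *Nop56* with a row in the table were near 0 (at most 0.206 and 1.64 CPM in any mouse). Of the 2 genes that matched *Fbl*, 1 was not analysed here and the other is *Tulp4*, whose row counts all of that gene, so no level is given for either copy. *Noc2l* shares 598 exon bases with the antisense gene *Samd11*, and whether counting used the strand is not given in the sources used here.

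The third mouse labelled BCL6-insufficient stood apart in the whole program. It was the highest of the 3 mice of its label in 28 of 35 members (80.0%), against 35.1% of all genes tested, and the lowest in 1. The summed CPM of the 36 members was 3312, 3662 and 4295 in the mice labelled BCL6-insufficient and 3344, 3572 and 3633 in the mice labelled wild-type. Without *Npm1* and *Ncl* the sums were 1944, 1966 and 2391 against 1886, 1910 and 1999. Both repeats of that mouse were above all 10 other libraries (4584 and 4094 CPM), and repeat 1 had the lowest depth of all libraries (3343375 counts). Within its label, this mouse was also the highest in 73 of 125 assembly and polymerase I genes outside the members (58.4%) and in 35 of 39 MYC-responsive genes outside the nucleolus (89.7%), but in 8 of 21 proliferation genes (38.1%) and in 1 of 14 partners and antagonists of MYC (7.14%). The summed CPM of the MYC-responsive genes was 7130, 7520 and 8610 in the mice labelled BCL6-insufficient and 8580, 8710 and 9870 in the mice labelled wild-type, so that for these genes the third mouse lay at the low end of the wild-type range and the other two below it. *Myc*, too, was highest there (30.3 CPM).

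Without that mouse the median log2 fold change of the members was -0.043 in place of 0.065, 3 members were called higher and 4 lower, and 14.9% of all genes were called. The first mouse of the same label was the lowest in 18 members and the second in 16. In the wild-type label no mouse stood apart to that degree: the 3 mice were the highest in 9, 10 and 16 members and the lowest in 13, 12 and 10. The spread of the members' sum was wider with the BCL6-insufficient label (3756 ± 498 CPM) than with the wild-type label (3516 ± 152). What set this mouse apart was not tested.

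**Figure D3:**
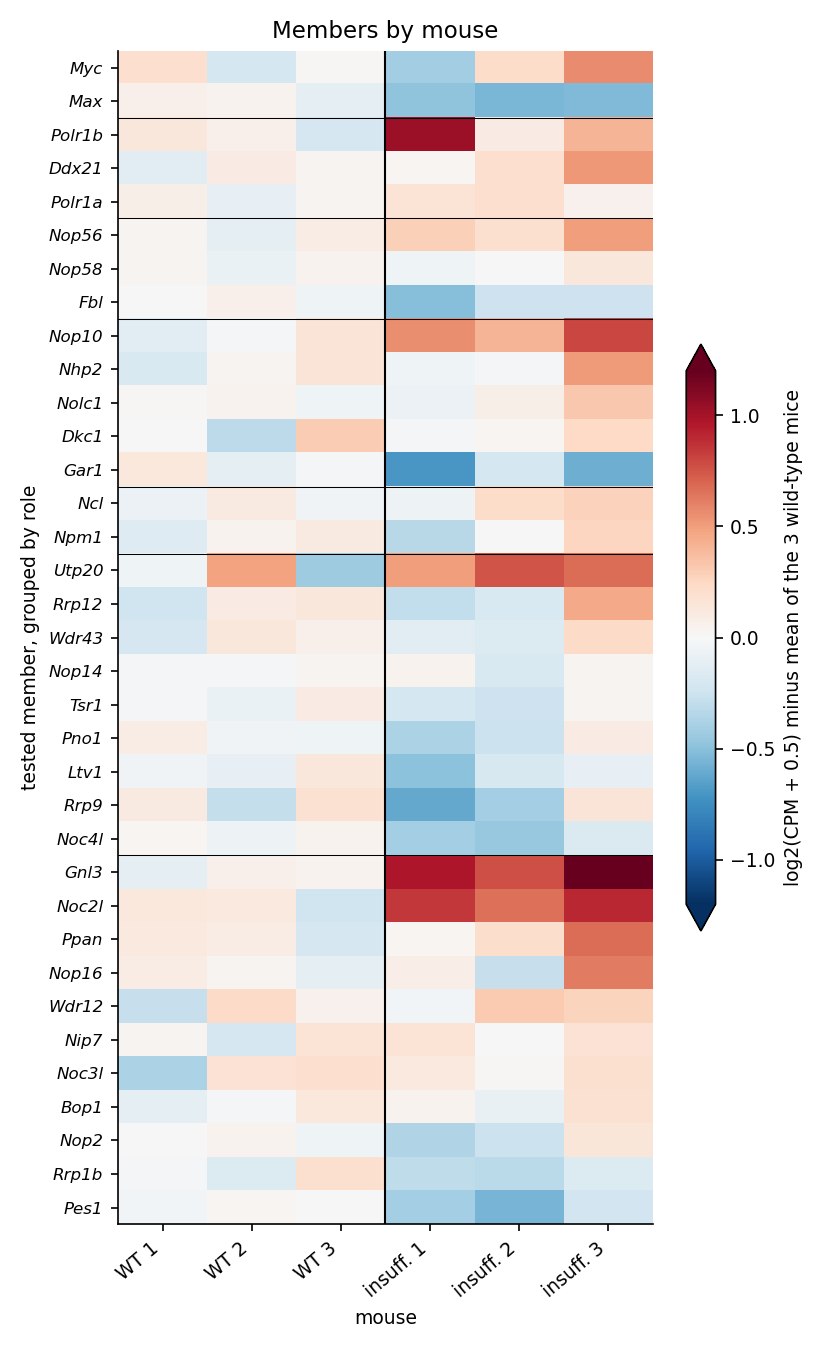
Each tested member (rows, grouped by role) in each mouse (columns), as log2(CPM + 0.5) minus the mean of the 3 wild-type mice, red above and blue below. The column of the third BCL6-insufficient mouse is red in most rows (28 of 35 members above the wild-type mean, median 0.23), the first and second have 14 and 16 members above it, and *Gnl3* and *Noc2l* are red and *Max* and *Gar1* blue in all 3.

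The technical repeats show the error below the mouse. Tested alone, repeat 1 of each mouse called 2 members higher and 0 lower by edgeR (9.38% of all genes), and repeat 2 called 3 higher and 2 lower (12.4% of all genes). *Gnl3* (log2 fold change 1.23 and 0.78) and *Noc2l* (0.68 and 0.91) were called in both. *Nop10*, *Fbl* and *Pes1* were called in repeat 2 alone. Of 35 members, 22 had the same sign in both repeats (62.9%, against 70.3% of 11057 genes), and all 8 called members were among them. The median SD between the repeats of a mouse was 0.256 on the log2 scale, for single libraries. Between mice of a label the median was 0.177, for summed repeats, so these values are not on the same scale. *Polr1b* (1.42 in repeat 1, 0.13 in repeat 2) and *Noc3l* (-0.50 and 0.77) depended most on the repeat.

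**Figure D4:**
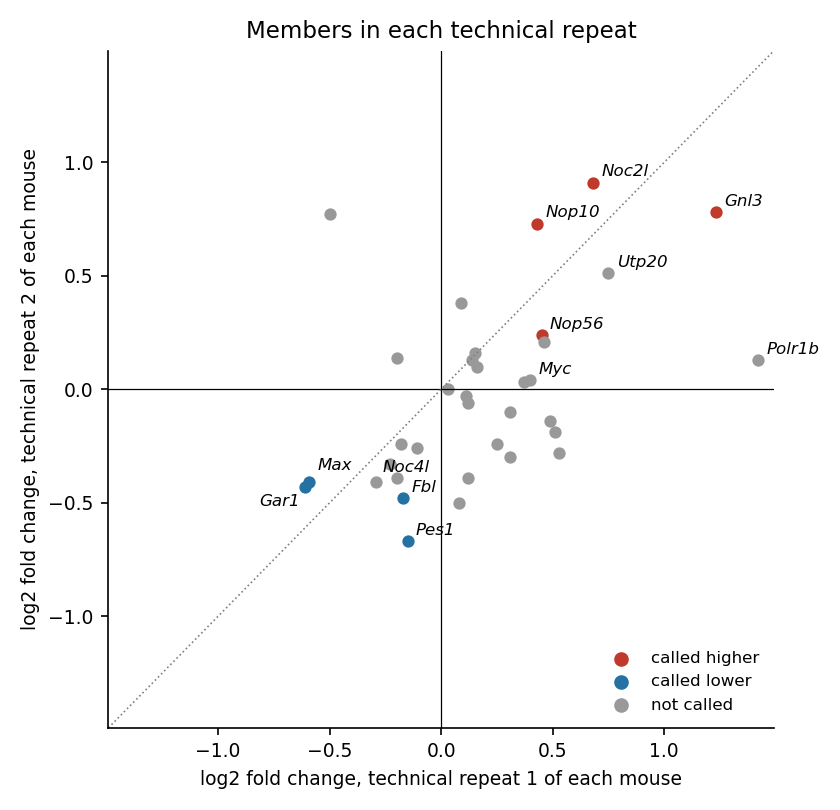
Log2 fold change of each tested member from technical repeat 1 of each mouse (x axis) and from technical repeat 2 (y axis), colored by the call from both repeats summed, with a dotted line where they are equal. All 8 called members lie in the quadrants where both repeats have the same sign, and *Polr1b* lies at 1.42 on the x axis and 0.13 on the y axis.

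Levels of different members can be compared per length of exon. In the mice labelled wild-type *Npm1* led with 340 ± 32.2 CPM per kb of exon (SD, n = 3), followed by *Nop10* (131 ± 13.0) and *Nhp2* (128 ± 14.7), which did not differ beyond their spread, and by *Ncl* (66.5 ± 4.49), *Nop56* (40.4 ± 2.99) and *Fbl* (33.7 ± 1.36). *Myc* (7.54 ± 1.09) was 27th of 36 and *Polr1a* (1.35 ± 0.0852) and *Polr1b* (1.0 ± 0.13) were the lowest that passed the filter. The order depends on the length used: per kb of one coding transcript, *Gnl3* moved from place 28 to place 20 and *Wdr12* from 29 to 13, while *Npm1* stayed first and *Polr1b* 35th. Of the genes that host snoRNA genes within their bounds, which are *Nop56*, *Nop58*, *Dkc1*, *Ncl*, *Wdr43*, *Tsr1*, *Gnl3* and *Ppan*, 2 of 8 rose and 0 fell (edgeR; 2 at an unadjusted p under 0.05, DESeq2 2). Of the 27 tested without one, 2 rose and 4 fell. In either direction 25.0% of the hosts and 22.2% of the others were called, against 18.0% of all genes tested. The difference between these groups was not tested.

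Set beside the rest of the growth program, the 3 lists of polymerase I and assembly genes outside the members held 11 higher and 10 lower calls among 125 tested (16.8%, median -0.03), near the background as the members were. The 39 MYC-responsive genes of metabolism and the cell cycle held 5 higher and 10 lower (38.5%, median -0.21). *Cad* (0.68) of pyrimidine synthesis, the amino acid transporter gene *Slc7a5* (0.79) and *Nme1* (0.37) rose, and *Ldha* (1170 ± 150 against 1800 ± 267 CPM, -0.62), *Pa2g4* (-0.57) and *Mcm5* (-0.48) fell. In 21 proliferation genes the calls were 4 and 4 (38.1%, against 18.0% of all genes), with a median of -0.09 and 16 of 21 estimates below 0, and with *Mki67*, *Top2a* and *Cenpe* higher and *Mcm6*, *Mcm7* and *Rrm1* lower. Of 81 ribosomal protein genes, the products that these factors assemble, 54 rose and 0 fell by edgeR. That is 66.7% called higher, against 9.17% of all genes tested. In edgeR 61 had an unadjusted p under 0.05 (31.0% of all genes), and DESeq2 called 55 (20.1% of all genes). The median was 0.43, with 74 estimates above 0 and 7 below, the lowest at -1.07. The difference between the members and the ribosomal protein genes was not tested.

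**Figure D5:**
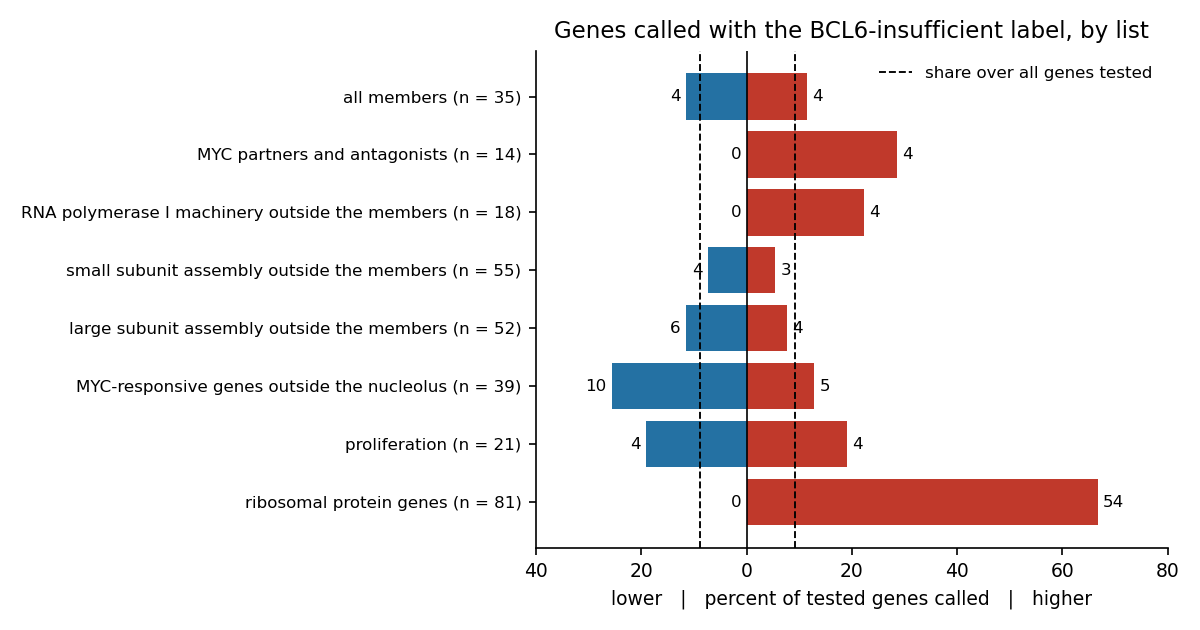
Percent of the tested genes of each list (y axis) that were called lower (blue, to the left) or higher (red, to the right) with the BCL6-insufficient label, with the number called at the end of each bar and dashed lines at the shares over all genes tested (8.82% lower and 9.17% higher). The bars of the members are near these lines on both sides (4 and 4 of 35), those of the MYC-responsive genes extend further to the left (10 of 39) and that of the ribosomal protein genes lies to the right (54 of 81).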

How the data were processed

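RNA-seq libraries of sorted Tfh cells (SMART-Seq2) were analysed from the deposited counts. The authors aligned the reads to GRCm38 (mm10) with HISAT2 2.2.1 and counted reads per gene with HTSeq, and deposited raw counts and TPM. For 8145 genes, the length that the deposited TPM imply had a Spearman correlation of 0.951 with the gene span and 0.599 with the exon length, so TPM served as an alternative. The annotation release is not given in the sources used here.

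Counts of both technical repeats were summed per mouse, since repeats are not separate animals. The test between the labels, over 6 mice, used edgeR 4.0.16 (R 4.3.3, TMM scaling, filterByExpr, quasi-likelihood test, Benjamini-Hochberg adjustment over 12719 genes, threshold 0.05, two-sided). An exact permutation test of 3 against 3 mice cannot go below p = 0.1. CPM are scaled by TMM. Annotation was GENCODE M21. The edgeR, DESeq2 and limma fits were tested on simulated counts.

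The members and the gene lists were chosen with earlier results of these data known. All members were named, and from each other list at most 3 called genes per direction, those with the smallest p. Marker lists of CD8 T and NK cells (24.3 to 33.0 CPM against 27.0 to 40.3 in wild-type, *Eomes* at 0) and stromal and erythroid cells (56.6 to 74.6 against 73.9 to 87.8, *Cdh5* and *Hbb-bt* at 0) had only 2 and 1 genes tested, with 0 calls by edgeR, 1 and 0 at an unadjusted p under 0.05 and 0 by DESeq2, and the 21 tested T cell and Tfh markers 5 higher and 7 lower (57.1% called, against 18.0% of all genes). Protein sequences were not analysed here. The level per coding transcript was added after seeing the data. Alternatives were DESeq2 1.42.0, limma 3.58.1 (voom, or on log2 TPM), other scalings and filters, single repeats, the replicate number as a block, GC and length offsets (mgcv 1.9.3) and leaving out each mouse. Since reads carried no molecular identifiers, counts are not counts of molecules, and depth gives counting error alone.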

Additional observations from a re-analysis of the deposited data

Results flagged for a closer look

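In each label, the 6 libraries of each of the 35 tested members were examined for 1 library that stood far off, which chance gives in about 1 in 20 groups (3.5 of 70). There were 5. In the first repeat of the third BCL6-insufficient mouse, *Nop56* read 283 CPM (nearest library 211, median of the others 197), *Dkc1* 121 (89.5 and 78.1) and *Ppan* 72.6 (47.0 and 38.4). That library has the lowest depth of all. *Gar1* read 45.1 CPM in the first repeat of the second BCL6-insufficient mouse (31.3 and 30.1), and *Nop10* 189 CPM in the first repeat of the third wild-type mouse (146 and 139). The causes were not tested.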

How the results depend on the processing

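Of 735 member values under 21 alternatives, 615 kept their direction and their side of the threshold, 47 kept the direction but no longer passed, 10 passed newly (*Utp20* and *Noc4l*) and 63 changed sign. *Gnl3* and *Noc2l* were called in 20 of 21, *Nop10* and *Max* in 17, *Nop56* and *Gar1* in 13, *Fbl* in 12 and *Pes1* in 9, and none of these 8 changed sign. The values below are log2 fold changes of members that were not called. The cause of a change was not tested.

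The replicate numbers did not pair the mice (correlations of deviations 0.085, -0.028 and 0.025 for numbers 1, 2 and 3, where only the mice numbered 1 correlated best with each other). With the replicate block 2579 genes, 5 members higher and 4 lower were called, and *Rrp12* became -0.0072.

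Genes called numbered 1059 in repeat 1 (2 members higher, 0 lower), 1446 in repeat 2 (2 lower), 1305 with log2(TPM + 1) (2 higher), 1260 with log2(TPM + 0.1) (2 higher) and 221 with log2(TPM + 1) over all genes (0 higher, 0 lower). Upper-quartile scaling left 2 members lower, removal of GC and length trends 1, and that removal with the replicate block 2. Log2(TPM + 1) called 390 genes higher and 915 lower, against 1166 and 1122 from counts, and log2(TPM + 0.1) called 374 and 886. The latter put the median of all genes at -0.111 in place of 0.011, so its values are relative to that. Leaving out each mouse gave 1424 to 1972 genes, 3 to 4 members higher and 0 to 4 lower.

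In repeat 1 *Npm1* was 0.026, *Nop14* 0.25, *Tsr1* 0.12, *Rrp1b* 0.08 and *Noc3l* -0.5. In repeat 2 *Polr1a* was -0.19, *Nop58* -0.028, *Dkc1* -0.28, *Rrp12* -0.3, *Wdr43* 0.14, *Nop16* -0.14, *Bop1* -0.059 and *Nip7* -0.1. With upper-quartile scaling *Npm1* was 0.027 and *Wdr43* 0.017, with all genes of at least 1 count *Rrp12* was -0.0037, and with voom *Myc* was -0.11 and *Rrp12* -0.11. With GC and length trends removed *Nop58* was -0.21, *Ncl* -0.033, *Nop14* 0.04, *Nop2* 0.0062 and *Wdr12* -0.077, and with the replicate block added *Nop58* -0.21, *Ncl* -0.045, *Nop14* 0.037 and *Wdr12* -0.071. With log2(TPM + 1), over the same genes or over all, *Nop58* was -0.075, *Nolc1* -0.0017, *Rrp12* -0.067, *Bop1* -0.076 and *Noc3l* -0.0047, and with log2(TPM + 0.1) *Nop58* was -0.077, *Nolc1* -0.0019, *Rrp12* -0.12 and *Bop1* -0.079.

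Leaving out each mouse moved *Myc* between -0.083 and 0.4, *Nop58* between -0.034 and 0.065, *Dkc1* between -0.086 and 0.23, *Nhp2* between -0.043 and 0.26, *Nolc1* between -0.0014 and 0.2, *Npm1* between -0.16 and 0.13, *Nop14* between -0.08 and 0.033, *Rrp12* between -0.27 and 0.16, *Wdr43* between -0.16 and 0.053, *Nop16* between -0.094 and 0.37, *Bop1* between -0.027 and 0.11 and *Noc3l* between -0.09 and 0.19.

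Depth and the spread between mice limit the low members most: *Polr1b* had as few as 14 counts in a library, *Noc3l* 21 and *Myc* 33.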
